A study of Mus musculus with 9 samples.

Results

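The Kruppel-like factors (KLFs) described here are 10 genes, Klf2, Klf3, Klf4, Klf6, Klf7, Klf9, Klf10, Klf11, Klf13 and Klf15, of 54838 genes in the count table. The set leaves out Klf5 and was chosen by a measured value, because Klf6 differs in all 3 comparisons between the groups. For Klf6 the differences are therefore given as a description with no test, and the other members are read from 1 fit across all genes. By the largest adjusted p over the 3 comparisons, Klf6 met that rule at 0.00503, and the member nearest to it from outside was Klf2 at 0.147. A filter on low counts left 13153 genes, with 9 of the 10 members among them.

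The cells are PDA530 Met, a line of pancreatic ductal adenocarcinoma that came from a liver metastasis in a male KPC mouse, a strain that develops this cancer, on a mixed 129/SvJae/C57Bl/6 background. The design text writes the name as PDA50 Met. RNA was sequenced from 3 groups of 3 libraries, all harvested untreated. The E4 knockout is a clone edited in the palmitoyltransferase gene Zdhhc20 with CRISPR/Cas9. The C5 control is a clone that received the same guide RNAs by nucleofection, was not edited and still expresses Zdhhc20. The parental line is the uncloned PDA530 Met. Each clone is a single one and its 3 libraries are called biological replicates, so p-values measure the spread between samples of 1 clone, and the edit cannot be told apart from other differences between clones.

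Total counts were 16525869 to 23192701 per library. Zdhhc20 was at 33.9 to 42.5 CPM (counts relative to the total of the library after TMM scaling, which corrects for differences in composition) in the E4 libraries, 85.8 to 123 CPM in the C5 libraries and 75.3 to 90.7 CPM in the parental libraries. Of 6 ductal carcinoma markers, Krt8, Krt18, Krt19, Cdh1 and Sox9 were expressed in every library, while Epcam did not exceed 0.635 CPM. Together they summed to 3884 to 4089.9 CPM in the knockout, 6261 to 8438 CPM in the control and 6309 to 7755 CPM in the parental libraries. Markers of other cells were near 0: those of fibroblasts summed to at most 4 CPM in any library, leukocytes to 2.79, endothelium to 0.525 and hepatocytes to 3. The hepatocyte sums were 0.0977 to 0.175 CPM in the knockout, 0.178 to 0.525 in the control and 1.12 to 3 in the parental libraries. At these low levels Pdgfra and Ttr were called lower in both knockout comparisons (edgeR adjusted p under 0.05). Cd68 was called lower against the C5 control only. Of all genes, 24.2% were called lower against the C5 control and 18.3% against the parental line. Col1a2, Dcn, Lum, Cd3e and Adgre1 held no count in any library. The C5 libraries varied most. The median SD of log2 CPM over the 9 tested members was 0.243 in the C5 control, 0.0757 in the E4 knockout and 0.194 in the parental line, and the C5 control had the largest SD for 7 of the 9.

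KLF proteins are transcription factors that bind GC-rich and CACCC sequences through a C-terminal array of C2H2 zinc fingers, which they share with the SP proteins. Their N-terminal parts differ, and decide whether a member recruits coactivators or corepressors. In epithelia Klf4 is known for terminal differentiation and exit from the cell cycle, Klf5 for proliferation, and both have been studied in the conversion of pancreatic acinar cells into ductal lesions. Klf2, Klf4, Klf6 and Klf10 are also known as genes that respond quickly to serum, stress or growth factors.

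RefSeq promoter windows, from 250 bases before to 50 bases after the annotated start, were available for 9 of the 10 members. They are shown for Klf4, which was lower in the E4 knockout than in both other groups, and for Klf6 and Klf13, which were higher. Sequences are on build GRCm38.p6, 5′ to 3′ on the strand of the gene, and capitals mark the GC box GGGCGG or its reverse complement CCGCCC, to which SP and KLF proteins can bind. The Klf4 window is chr4:55532426-55532725 on the minus strand, the Klf6 window chr13:5861239-5861538 on the plus strand and the Klf13 window chr7:63938866-63939165 on the minus strand.
Klf4: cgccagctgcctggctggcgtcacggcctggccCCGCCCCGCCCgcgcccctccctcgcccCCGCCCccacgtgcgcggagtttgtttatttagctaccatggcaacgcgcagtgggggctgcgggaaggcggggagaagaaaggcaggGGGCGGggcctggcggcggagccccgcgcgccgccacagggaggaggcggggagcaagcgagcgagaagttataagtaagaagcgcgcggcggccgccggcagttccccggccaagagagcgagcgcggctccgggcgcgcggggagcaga
Klf6: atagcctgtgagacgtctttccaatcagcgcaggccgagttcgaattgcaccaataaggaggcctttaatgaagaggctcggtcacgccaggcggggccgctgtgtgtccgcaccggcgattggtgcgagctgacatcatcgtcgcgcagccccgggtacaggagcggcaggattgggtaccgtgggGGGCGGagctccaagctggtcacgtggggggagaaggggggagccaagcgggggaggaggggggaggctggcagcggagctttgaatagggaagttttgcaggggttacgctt
Klf13: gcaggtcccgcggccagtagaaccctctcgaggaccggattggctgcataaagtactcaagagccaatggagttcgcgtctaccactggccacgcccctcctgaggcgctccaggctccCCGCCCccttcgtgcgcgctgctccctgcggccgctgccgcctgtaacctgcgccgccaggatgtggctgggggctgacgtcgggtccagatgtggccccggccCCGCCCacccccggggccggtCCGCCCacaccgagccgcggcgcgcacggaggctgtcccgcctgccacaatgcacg

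The Klf4 window held 4 GC boxes, of which the first 2 share 1 base, the Klf6 window 1 and the Klf13 window 3. Of the 9 member windows, 8 held a GC box on either strand, against 35.7% of 32851 windows of all genes. The shorter CACCC box, searched as CACCC on both strands, was in 6 of the 9, against 57.5% of all windows. The Klf13 window has 1, and its first base is the last base of a GC box. The letters TATAAA were in 0 of the 9 and 13.6% of all windows, and the CArG box, to which serum response factor can bind, in 0 of the 9 and 1.63% of all windows. GC content was 58.3% to 77.7% in the member windows and had a median of 52.7% over all windows, so the GC box counts are set beside windows with fewer G and C bases. A GC box was thus in windows of members with lower and with higher levels, and no binding was measured.

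The family moved in both directions in the knockout. Klf4 and Klf10 fell, by 3.61-fold and 1.71-fold against the C5 control, and Klf13 rose 1.65-fold, and these 3 also differed from the parental line in the same direction. Klf2 rose 3.35-fold and Klf7 1.61-fold against the C5 control, and neither passed the test against the parental line. Klf3, Klf9 and Klf11 were not called in any comparison, and Klf15 held no count. In bulk RNA, fewer cells with a transcript and less of it per cell cannot be told apart.

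Against the C5 control, 6 of the 9 tested members were called at an adjusted p under 0.05, 4 higher and 2 lower, where 42.9% of all tested genes were called, 18.7% higher and 24.2% lower. Klf6 is 1 of the 6 by choice. Of the other 8, 3 were higher, 2 lower and 3 not called, with a median log2 fold change of 0.42 against -0.02 for all genes. Against the parental line, 4 of the 9 were called, again with Klf6 by choice, where 31.4% of all tested genes were called, 13.1% higher and 18.3% lower. Of the other 8, 1 was higher and 2 were lower, which is 37.5%, with a median of 0.04 against -0.01 for all genes. A fit of only the knockout and parental libraries called 8 of the 9, Klf6 included, and 53.5% of all genes. Between the C5 control and the parental line edgeR called 0 of the 8 other members, where 21.4% of all genes were called, 10.4% higher and 11.0% lower, and Klf6, by choice, was lower. Klf2, Klf7 and Klf9 had an unadjusted p under 0.05 there (0.031, 0.0122 and 0.0232), and DESeq2 called Klf7 in addition. The count of 0 became 3 without control replicate 3 (Klf7, Klf9 and Klf13), where 30.8% of all genes were called, and 1 without control replicate 2 (Klf2), where 29.2% were. As many as 42.9% and 31.4% of all genes were called in the knockout comparisons, so nothing particular to the family is read from these counts, and the knockout comparisons share the E4 libraries.

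**Figure D1:**
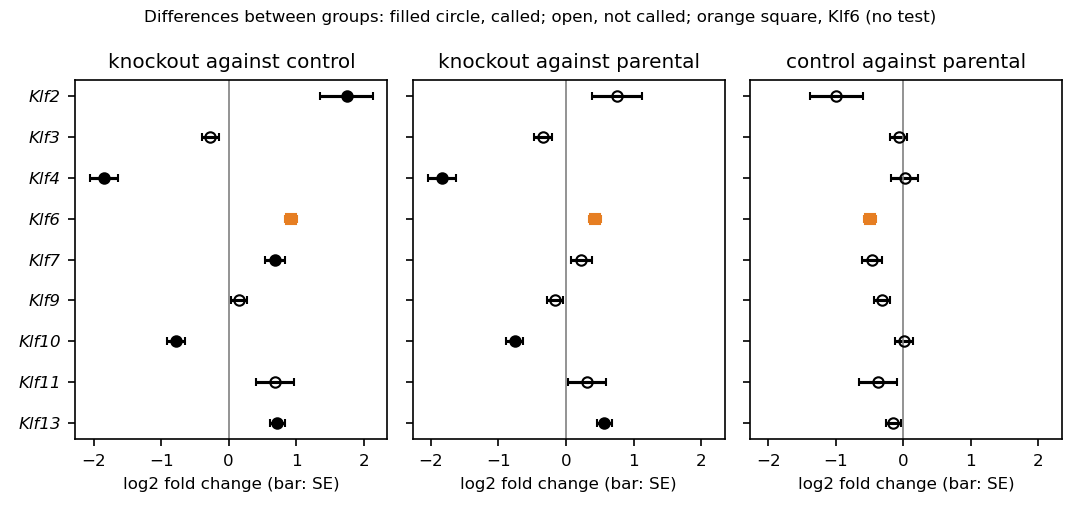
The log2 fold change (horizontal axes) of the 9 tested KLF genes (vertical axis) in the 3 comparisons, with bars of 1 SE from edgeR. Filled circles were called, open circles were not, and the orange squares are Klf6, given without a test. Klf4 lies at -1.85 and -1.84 in the knockout comparisons and at 0.02 between the C5 control and the parental line.

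Klf6, a broadly expressed KLF that is induced by tissue injury and known as a growth suppressor in several carcinomas, was the most abundant member. It lies on chromosome 13 from 5861482 to 5870394 in GRCm38. Klf6 was at 501, 542 and 497 CPM in the E4 libraries, 261, 304 and 249 CPM in the C5 libraries, and 393, 368 and 381 CPM in the parental libraries. No 2 of the 3 groups overlapped: every knockout library was above every parental library, and every parental library above every control library. The means were 514 ± 24.9, 272 ± 29.1 and 381 ± 12.8 CPM (SD, n = 3). On the log2 scale the E4 knockout was 0.92 above the C5 control (SE 0.09) and 0.43 above the parental line (SE 0.09), and the C5 control differed from the parental line by -0.49 (SE 0.09). These 3 differences are the values the set was chosen by. Under the 16 alternative settings the values were 0.86 to 1.01, 0.39 to 0.46 and -0.58 to -0.43, which adds no support, since the choice fixed their sign. Klf6 is known to be spliced into forms of different activity, which counts per gene do not separate.

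**Figure D2:**
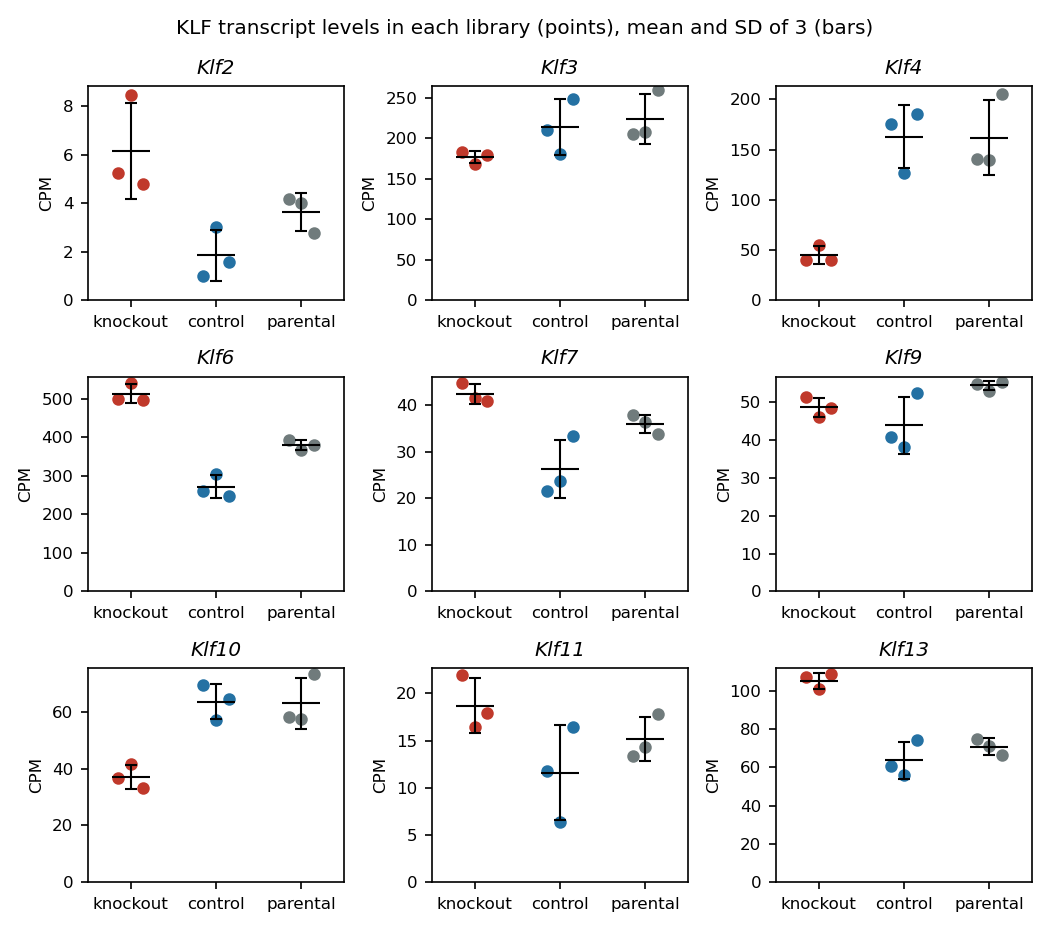
CPM (vertical axes, from 0) of the 9 KLF genes that passed the filter, in the E4 knockout, C5 control and parental line (horizontal axes). Points are libraries and bars give the mean and SD of 3 libraries. Klf4 and Klf10 are lower, and Klf2, Klf6, Klf7 and Klf13 higher, in all E4 libraries than in any other library. Klf2 and Klf7 were so separated without a call against the parental line. The share of all genes separated in this way is not given here.

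Klf4, the factor of epithelial differentiation, fell furthest among the members. It lies on chromosome 4 from 55527143 to 55532466. Its level was 40.5, 55.1 and 40.0 CPM in the E4 libraries, 176, 127 and 186 CPM in the C5 libraries, and 141, 139.5 and 205 CPM in the parental libraries. The highest knockout library was below the lowest of the other 6, whereas the control and parental libraries overlapped. The log2 fold change was -1.85 against the C5 control (SE 0.21, edgeR adjusted p 0.000141) and -1.84 against the parental line (SE 0.21, edgeR adjusted p 0.000238), so Klf4 was 3.61-fold and 3.58-fold lower. Between the C5 control and the parental line the difference was 0.02, with a 95% interval from -0.43 to 0.46. Of all tested genes, 5.32% were at least as far down against the C5 control and 4.95% against the parental line.

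Epithelial keratins were lower together with Klf4. Krt19, a ductal keratin, was at 155, 185 and 176 CPM in the E4 libraries, 1657, 823 and 1993 CPM in the C5 libraries, and 913, 989 and 1520.5 CPM in the parental libraries. Control replicate 2, the lowest control library for Klf4, was also the lowest control library for Krt19, Krt8 and Cdh1. Parental replicate 3, the highest parental library for Klf4, was also the highest parental library for all 3. The same 2 libraries were the lowest and the highest of their groups for Klf3, Klf10, Klf11 and Zdhhc20 as well, so this order is not particular to Klf4 and the keratins. Of the 6 ductal markers, Krt8, Krt18, Krt19 and Cdh1 were called lower in both knockout comparisons, and Epcam, near 0, higher. Of all genes, 24.2% were lower and 18.7% higher against the C5 control, and 18.3% and 13.1% against the parental line. Krt19 fell by 3.12 on the log2 scale against the C5 control (edgeR adjusted p 8.76e-05) and fell by 2.73 against the parental line (edgeR adjusted p 0.000278). The part of these markers in the Klf4 result was not tested. Without control replicate 2 or any other 1 library, and under the other settings, the Klf4 difference stayed between -2.01 and -1.75 against the C5 control and between -2.0 and -1.63 against the parental line.

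Klf10 and Klf11 are the TGF-beta inducible early genes, repressors that bind the Sin3 corepressor through their N-terminal part. Klf10 lies on chromosome 15 from 38291463 to 38300706 and stood at 36.8, 41.5 and 33.0 CPM in the E4 libraries, 69.2, 56.9 and 64.4 CPM in the C5 libraries, and 58.0, 57.3 and 73.3 CPM in the parental libraries. As for Klf4, all E4 libraries were below all others. Klf10 fell by 0.78 on the log2 scale against the C5 control (SE 0.13, edgeR adjusted p 0.00117) and fell by 0.76 against the parental line (SE 0.13, edgeR adjusted p 0.00205). The C5 control and the parental line differed by 0.01, with a 95% interval from -0.27 to 0.30.

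Klf11 was not called in any comparison. It was at 21.9, 16.4 and 17.9 CPM in the E4 libraries, 11.8, 6.42 and 16.4 CPM in the C5 libraries, and 13.4, 14.3 and 17.8 CPM in the parental libraries, and the ranges of all 3 groups overlapped. Its log2 fold change against the C5 control was 0.69 (SE 0.28, edgeR adjusted p 0.0722), with the opposite sign to that of Klf10. Without control replicate 3 that value was 1.02 and was called (edgeR adjusted p 0.0084), and without control replicate 2 it was 0.42 (edgeR adjusted p 0.0801). The other libraries left out in turn gave 0.58 to 0.79, none of them called. It was also called without a filter (adjusted p 0.0197), with the DESeq2 test (0.0432) and with the replicate block (0.0337). Klf11 lies on chromosome 12 from 24651274 to 24662789, where 7 of the 10 nearest tested genes were called lower against the C5 control, where 24.2% of all genes were, with a median log2 fold change of -0.99 for the 10. Against the parental line 5 of the 10 were called lower (18.3% of all genes), with a median of -0.60, and between the C5 control and the parental line 3 were higher and 2 lower (10.4% and 11.0% of all genes).

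Klf13, first described as an activator of the chemokine gene Ccl5 in T cells, rose in the E4 knockout. It lies on chromosome 7 from 63886351 to 63938915. The E4 libraries were at 107, 101 and 109 CPM, the C5 libraries at 60.7, 56.2 and 74.4 CPM, and the parental libraries at 74.9, 71.2 and 66.3 CPM. Every knockout library was above the other 6, which overlapped between the C5 control and the parental line. On the log2 scale the difference was 0.72 against the C5 control (SE 0.11, edgeR adjusted p 0.000643) and 0.57 against the parental line (SE 0.11, edgeR adjusted p 0.0034). Between the C5 control and the parental line it was -0.15 (SE 0.11, edgeR adjusted p 0.343), a value that was -0.28 and called without control replicate 3 (edgeR adjusted p 0.0257). Of the 10 nearest tested genes, 3 were called higher against the C5 control and 4 against the parental line, where 18.7% and 13.1% of all genes were. Ccl5 held no count in any library.

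Klf2 and Klf7 were called higher against the C5 control only. Klf2, known for quiescence of endothelium and T cells, was the least abundant tested member, at 82 to 152 counts in a knockout library, 23 to 51 in a control library and 47 to 87 in a parental library. Its levels were 5.27, 8.46 and 4.79 CPM in the E4 libraries, 1, 3.03 and 1.57 CPM in the C5 libraries, and 4.19, 4.01 and 2.77 CPM in the parental libraries. The E4 libraries were above the other 6. The log2 difference was 1.75 against the C5 control (SE 0.39, edgeR adjusted p 0.00568) and 0.75 against the parental line (SE 0.37, edgeR adjusted p 0.147). The C5 control differed from the parental line by -0.99 (SE 0.39, edgeR adjusted p 0.102), so the 2 knockout differences were not shown to differ from each other. Without control replicate 2, Klf2 was called in those comparisons too, at 0.75 against the parental line (edgeR adjusted p 0.046) and at -1.52 for the C5 control (edgeR adjusted p 0.0108). It was also called against the parental line in a fit of only those 2 groups (adjusted p 0.0242), and between the C5 control and the parental line with the replicate block (-1.06, adjusted p 0.0466).

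Klf7, best known for the outgrowth of axons in the nervous system, was at 44.8, 41.6 and 40.8 CPM in the E4 libraries, 21.6, 23.8 and 33.4 CPM in the C5 libraries, and 37.9, 36.3 and 33.9 CPM in the parental libraries. The groups did not overlap, with the E4 knockout highest and the C5 control lowest, as for Klf6, although control replicate 3 and parental replicate 3 were close together. The log2 fold change was 0.69 against the C5 control (SE 0.15, edgeR adjusted p 0.00471), 0.23 against the parental line (SE 0.15, edgeR adjusted p 0.251) and -0.46 for the C5 control against the parental line (SE 0.15, edgeR adjusted p 0.0548). Without control replicate 3 the last was -0.67 (edgeR adjusted p 0.00103) and the second 0.23 (edgeR adjusted p 0.0329). The C5 control was also called lower than the parental line with total counts in place of TMM scaling (adjusted p 0.0378), without a filter (0.0282) and with the DESeq2 test (0.023). In a fit of the knockout and parental libraries alone, the second difference was called as well (0.24, adjusted p 0.0124).

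Klf3 and Klf9 were not called in any comparison. Klf3, a repressor that acts through the CtBP corepressors, was at 183, 169 and 179 CPM in the E4 libraries, 211, 180.5 and 249 CPM in the C5 libraries, and 205, 208 and 260.2 CPM in the parental libraries. The E4 libraries were below the parental libraries and overlapped with the C5 libraries. On the log2 scale the difference was -0.27 against the C5 control, with a 95% interval from -0.56 to 0.02, and -0.34 against the parental line, from -0.63 to -0.05 (edgeR adjusted p 0.118 and 0.0725). The first was called without control replicate 2 (-0.37, edgeR adjusted p 0.0199). The second was called without control replicate 2 (edgeR adjusted p 0.0243), without control replicate 3 (0.0246), with the replicate block (0.0372) and in a fit of those 2 groups (0.00809).

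Klf9, a target of the glucocorticoid receptor in many tissues, was at 51.2, 46.1 and 48.5 CPM in the E4 libraries, 40.8, 38.1 and 52.5 CPM in the C5 libraries, and 54.8, 53.0 and 55.3 CPM in the parental libraries. The parental libraries were above the other 6, and the knockout and C5 libraries overlapped. The log2 difference was 0.15 against the C5 control (95% interval -0.11 to 0.41), -0.16 against the parental line (-0.42 to 0.10) and -0.31 for the C5 control against the parental line (-0.57 to -0.05), and the adjusted p of the last was 0.084 in edgeR. Without control replicate 3 the first and last were 0.30 (edgeR adjusted p 0.0094) and -0.46 (edgeR adjusted p 0.00253). The second was called in a fit of those 2 groups (adjusted p 0.042). Klf15, a regulator of amino acid and glucose metabolism in liver and muscle, held 0 counts in all 9 libraries, which allows up to 0.131 to 0.178 CPM in a library at 3 counts.

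Levels of different members were compared per kilobase of merged exon in GENCODE M21, which counts every annotated exon and so understates genes with long alternative ends such as Klf3. In the E4 knockout Klf6 stood at 117 ± 5.68 CPM per kilobase (SD, n = 3), above Klf3 at 15.7 ± 0.644, Klf4 at 14.8 ± 2.81 and Klf13 at 14 ± 0.552. Klf4 did not differ from either of these neighbours in the order beyond its spread. In the C5 control Klf6, at 61.8 ± 6.63 CPM per kilobase, and Klf4, at 53.5 ± 10.4, were within their spread of each other. The parental line held 86.8 ± 2.91 CPM per kilobase of Klf6 and 53 ± 12.2 of Klf4. Klf2 and Klf11 had the lowest values of the tested members in every group, from 1.01 to 4.32 CPM per kilobase. The ratio of Klf6 to Klf4 per kilobase, which does not depend on library size, was 8.6, 6.84 and 8.63 in the E4 libraries, 1.03, 1.66 and 0.929 in the C5 libraries, and 1.94, 1.83 and 1.29 in the parental libraries. Its mean was 8.02 ± 1.03 in the E4 knockout, 1.21 ± 0.397 in the C5 control and 1.69 ± 0.347 in the parental line (SD, n = 3), and since the Klf6 values chose the set, the ratio is given without a test.

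Genes on chromosome 13 shifted together with Klf6. Over the 541 other tested genes of that chromosome the median log2 fold change was 0.33 for the E4 knockout against the C5 control, 0.12 against the parental line and -0.20 for the C5 control against the parental line, in the same order of groups as Klf6, while genes on all other chromosomes had medians of -0.04, -0.01 and 0.02. Klf6 lay further out, at 0.92, 0.43 and -0.49. Its nearest tested neighbours did not share 1 direction. Of the 5 on either side, Pitrm1, which encodes a mitochondrial protease and starts 687 kilobases away, was called higher in the E4 knockout, by 0.95 against the C5 control (edgeR adjusted p 0.000212) and 0.41 against the parental line (edgeR adjusted p 0.0224). Akr1c14, Akr1c19 and Akr1e1, aldo-keto reductase genes on the other side, were called lower in both knockout comparisons. Their values were -1.43, -1.96 and -0.52 against the C5 control and -3.31, -2.4 and -0.56 against the parental line. Akr1c14 and Pitrm1 were also called lower in the C5 control than in the parental line, at -1.88 and -0.54. The medians of the 10 neighbours were -0.24, -0.12 and -0.14 in the 3 comparisons, where 24.2%, 18.3% and 11.0% of all genes were called lower. Akr1c12, Akr1c13, Pfkp, Gm47507, Gm46401 and Gm10357 were not called. The Akr1c genes are similar copies, among which the counting could share reads, so their values are uncertain. The part of the chromosome in the level of Klf6 was not tested. Chromosome 13 was not alone in this. In the same order of comparisons, the medians were 0.19, 0.02 and -0.15 on the chromosome of Klf9, -0.25, 0.02 and 0.29 on that of Klf11, and 0.04, -0.14 and -0.17 on that of Klf7. On the chromosome of Klf15 they were -0.16, 0 and 0.14. On the chromosomes of Klf2, Klf3, Klf4, Klf10 and Klf13 they were between -0.04 and 0.13 in all 3.

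**Figure D3:**
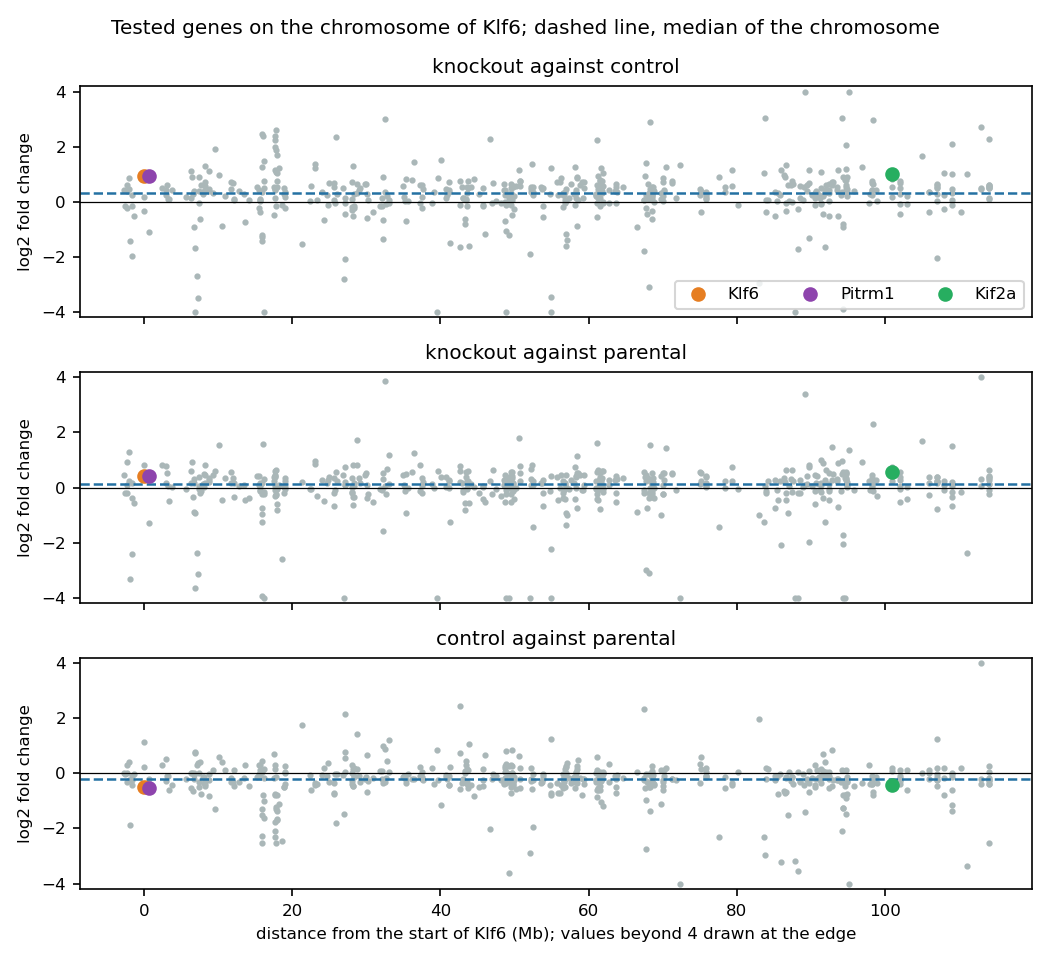
The log2 fold change (vertical axes) of each tested gene on the chromosome of Klf6 by distance from the start of Klf6 in megabases (horizontal axis), for the 3 comparisons. Grey points are genes, with values beyond 4 drawn at the edge, and the dashed lines give the chromosome medians of 0.33, 0.12 and -0.20. Klf6, Pitrm1 and Kif2a lie above the median in both knockout panels and below it in the panel of the C5 control against the parental line.

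The 5 genes with the profile most like that of Klf6 were found by the root mean square difference of centred log2 CPM over the 9 libraries, over 10019 genes with a mean level of 5 CPM or more. Fmnl3, a formin that nucleates actin filaments, came first at 0.0612, followed by Cfl1, the actin-severing cofilin, at 0.0636, Armcx5 at 0.0703, Pitrm1 at 0.0705 and Kif2a, a kinesin that depolymerises microtubules, at 0.081. The median over all genes compared was 0.423. Cfl1 was at 1525 ± 35.8 CPM in the E4 knockout, 871 ± 109 CPM in the C5 control and 1217 ± 39.9 CPM in the parental line (SD, n = 3). Pitrm1 and Kif2a lie on chromosome 13, which held 3.76% of the genes compared. The 5 genes were picked by their likeness to the Klf6 values that chose the set, so their positions are given without a test.

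Serum-inducible immediate early genes were low in the C5 control, as Klf6 was. Of 14 such genes and their regulators, 11 were called lower in the C5 control than in the parental line, where 11.0% of all tested genes were, with a median log2 fold change of -0.74 against 0.01 for all genes, and 11 were called higher (18.7% of all genes) and 1 lower in the E4 knockout than in the C5 control, with a median of 1.5. Against the parental line the list had a median of 0.08, with 6 called higher in the E4 knockout (13.1% of all genes) and 5 lower (18.3%). Jun was at 77.2, 86.7 and 67.9 CPM in the E4 libraries, 11.4, 12.3 and 11.1 CPM in the C5 libraries, and 32.9, 34.2 and 31.2 CPM in the parental libraries, which is the order of groups seen for Klf6. Egr1 was at 126 to 162, 3.49 to 5.46 and 230.3 to 269 CPM in the E4, C5 and parental libraries and was highest in the parental line. Fosb, Atf3 and Fosl1 were also called higher in both knockout comparisons, at 2.52, 1.48 and 0.83 against the C5 control and 1.55, 0.99 and 0.99 against the parental line. Among the quickly induced KLFs, the C5 control differed from the parental line by -0.49 for Klf6, -0.99 for Klf2 (edgeR adjusted p 0.102, and called without control replicate 2 or with the replicate block), 0.02 for Klf4 and 0.01 for Klf10. The part of this response in any KLF level was not tested.

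Of the upstream genes, Map2k5, the kinase of ERK5 in the cascade that induces Klf2 and Klf4, fell by 0.51 on the log2 scale against the C5 control and fell by 0.73 against the parental line (edgeR adjusted p 0.00195 and 0.000455). Mef2d, a MEF2 factor at the end of that cascade, fell by 0.41 and 0.30 (edgeR adjusted p 0.00265 and 0.0178). Of the 9 ERK5, MEF2 and FOXO genes, all of them tested, 1 was called higher and 2 lower in each knockout comparison, where 42.9% of all tested genes were called against the C5 control and 31.4% against the parental line. Mef2a was called higher against the C5 control (0.46, edgeR adjusted p 0.000593). Mapk7, the ERK5 gene, was called higher against the parental line (0.34, edgeR adjusted p 0.026). The list had median log2 fold changes of 0.05 and 0.16, against -0.02 and -0.01 for all genes. In the TGF-beta list around Klf10 and Klf11, 3 of 9 were called higher and 2 lower against the C5 control (18.7% and 24.2% of all genes), and 1 higher and 2 lower against the parental line (13.1% and 18.3%), with medians of 0.12 and 0. Smad3, the receptor-activated transducer, was at 79 ± 7.18 CPM in the E4 knockout, 138 ± 24 CPM in the C5 control and 179 ± 2.59 CPM in the parental line (SD, n = 3), with log2 fold changes of -0.81 and -1.18 (edgeR adjusted p 0.000843 and 0.000182). Tgfb1 rose by 0.64 and 0.40 (edgeR adjusted p 0.000717 and 0.0119).

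The glucocorticoid receptor list, set beside Klf9 and Klf15, had 6 of 8 genes tested, of which 4 were called against the C5 control and 1 against the parental line (42.9% and 31.4% of all genes), with medians of -0.38 and -0.12. Fkbp5, a chaperone induced by the receptor, fell by 0.78 on the log2 scale against the C5 control and fell by 0.52 against the parental line (edgeR adjusted p 0.000333 and 0.00462). It was the only one of the list called against the parental line, while Nr3c1, the receptor, was called lower against the C5 control only (-0.48, edgeR adjusted p 0.00201) and was higher in that clone than in the parental line (0.54, edgeR adjusted p 0.00318). Sgk1 and Dusp1 were called higher against the C5 control, at 1.23 and 2.30, and had values of -0.30 and 0.58 against the parental line, where neither was called.

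Of 14 genes reported elsewhere as KLF targets, 9 were tested, and 4 were called higher and 2 lower against the C5 control, with 3 higher and 2 lower against the parental line. Of all genes, 18.7% were higher and 24.2% lower in the first comparison and 13.1% and 18.3% in the second, and the medians of the list were 0.43 and 0.40. Tgfb1, called higher in both, and Smad7, called higher against the C5 control only, were also counted in the TGF-beta list. Plau, the urokinase gene reported as a Klf6 target, was at 20.9, 24.9 and 21 CPM in the E4 libraries, 8.34, 11.4 and 8.08 CPM in the C5 libraries, and 8.72, 7.37 and 6.71 CPM in the parental libraries. Its log2 fold change was 1.27 against the C5 control (edgeR adjusted p 0.000287) and 1.55 against the parental line (edgeR adjusted p 0.000177). For the C5 control against the parental line it was 0.28 (edgeR adjusted p 0.262). Cdkn1a, the cell cycle inhibitor p21 and a reported target of Klf4 and Klf6, rose by 0.84 and 0.91 (edgeR adjusted p 0.00476 and 0.00477). Lgals3, which encodes galectin-3 and is reported as repressed by Klf3, fell by 0.79 and fell by 0.66 (edgeR adjusted p 0.000725 and 0.00289). Bcat2, an enzyme of branched-chain amino acid breakdown and a reported Klf15 target, fell by 0.46 and fell by 0.37 (edgeR adjusted p 0.00871 and 0.031), in cells without a Klf15 count.

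**Figure D4:**
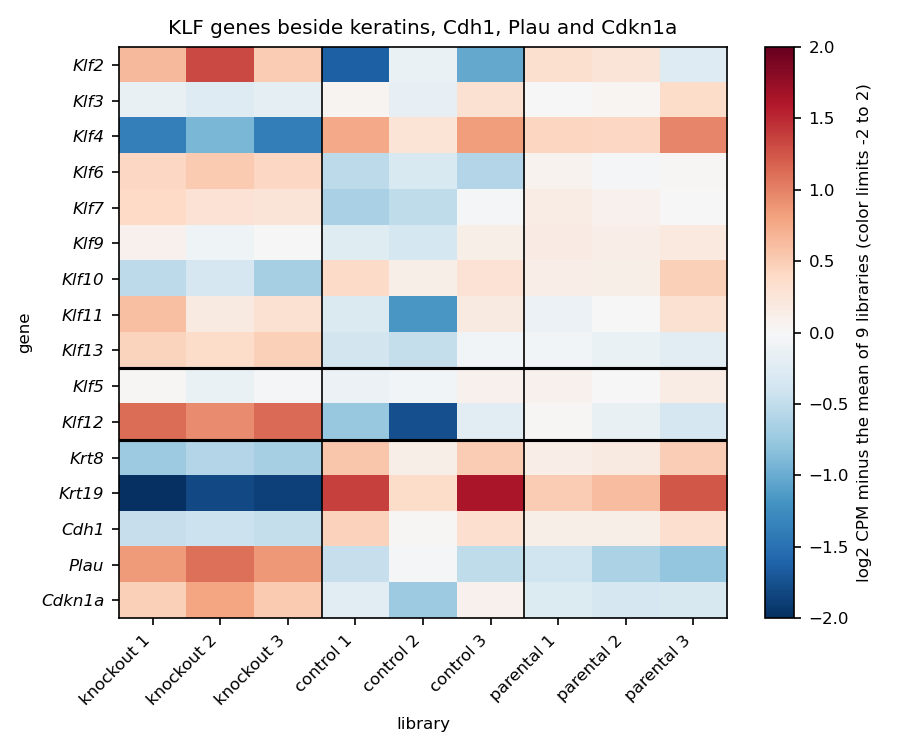
Log2 CPM of each gene (rows) in each library (columns), centred on its mean over the 9 libraries, with red above and blue below the mean. The top block holds the tested KLF genes, the middle block Klf5 and Klf12, and the bottom block Krt8, Krt19, Cdh1, Plau and Cdkn1a. Klf4 is between -1.38 and -0.92 in the E4 libraries and above the mean in all 6 others. Klf10, Krt8, Krt19 and Cdh1 are also below the mean in the E4 libraries and above it in all 6 others.

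The other KLF genes gave a reference for the set. Of Klf1, Klf5, Klf8, Klf12, Klf14, Klf16 and Klf17, only Klf5, Klf12 and Klf16 passed the filter, and Klf14 held 0 counts. Klf5 was at 168, 151 and 161 CPM in the E4 libraries, 153, 158 and 176 CPM in the C5 libraries, and 176, 167 and 183 CPM in the parental libraries, and was not called. Its log2 fold change was -0.02 against the C5 control (95% interval -0.20 to 0.16) and -0.13 against the parental line (-0.31 to 0.05), intervals that do not reach the Klf4 values. Klf12, a repressor that acts through CtBP like Klf3, rose in the E4 knockout to 17.5 ± 1.22 CPM from 4.81 ± 2.41 CPM in the C5 control and 7.48 ± 0.949 CPM in the parental line (SD, n = 3). That is a log2 fold change of 1.86 (SE 0.30, edgeR adjusted p 0.00105) and 1.23 (SE 0.29, edgeR adjusted p 0.0114). Klf16 was not called, at 0.15 and 0.46 (edgeR adjusted p 0.533 and 0.0839).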

How the data were processed

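The authors deposited a table of estimated counts, with a column per library, in which all values were whole numbers. The submitters' processing notes name STAR 2.5.2, RSEM 1.3.0, DESeq2 1.10.1 and build GRCm38. The annotation release and strand setting are not given in the sources used here, so Klf3, Klf7, Klf9 and Klf13, which overlap other annotated genes, may hold reads of those. Symbols and positions are from GENCODE M21, which held 54723 of 54838 identifiers, and promoter sequences from RefSeq.

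Tests used edgeR 4.0.16 (R 4.3.3; quasi-likelihood F test) in 1 fit of 9 libraries, with no term but group, filterByExpr (minimum count 10, minimum total 15), TMM scaling and Benjamini-Hochberg adjustment over 13153 genes. A gene was called at an adjusted p under 0.05. CPM are TMM-scaled, centred values use log2 CPM with a prior count of 2, and intervals are 95% from the SE. The fit was also run on simulated counts with the same spread in every group and few changed genes. That run could not show what the unequal spread of these groups does to the calls. Members and lists were chosen with earlier results of these data known. The text names all members, the neighbours of Klf6 and the 5 genes most like it, the tested KLF and SP genes, and up to 4 genes per list with the largest change among those called the same way in both knockout comparisons. Egr1, Nr3c1, Sgk1, Dusp1, Sin3a, Ctbp1, Ctbp2, Btrc, Smurf1, Fbxw7, Bcat2, Krt18 and Sox9 were named after their values were seen. So were Mapk7, Mef2a, Smad7 and Cd68. Alternatives were DESeq2 1.42.0 size factors, total counts, no filter, a mean of at least 5 CPM, the DESeq2 test, a replicate block, fits limited to the 2 groups in question, and each library left out in turn. The labels give no batch. Replicates all differed beyond sampling noise (lowest chi-square per gene 5).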

Additional observations from a re-analysis of the deposited data

How the results depend on the processing

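Over the 8 tested members other than Klf6, the 3 comparisons and 16 alternative settings, 347 of 381 values kept their direction and side of the threshold, 23 became called and 0 lost a call. In 11 an uncalled value near 0 changed sign, all for the C5 control against the parental line: Klf10 went from 0.01 to -0.03 with total counts and -0.06 to 0.13 with 1 library left out, Klf3 from -0.07 to between -0.19 and 0.04 with 1 library left out, and Klf4 from 0.02 to -0.03 with total counts and -0.09 to 0.21 with 1 library left out. The mean of at least 5 CPM left out Klf2. The number of members called against the parental line (Klf6 included here and below) went from 4 to 8 in a fit of only the groups compared, where 53.5% of all genes were called, and was 4 to 6 with 1 library left out (18.7% to 42.7%). Between the C5 control and the parental line it went from 1 to 2 with total counts, without a filter, with the DESeq2 test and with the replicate block, where 11 to 25.5% of all genes were called, and was 1 to 4 with 1 library left out (11 to 30.8%). Against the C5 control it was 5 to 8 throughout, where 22.6% to 53.5% of all genes were called.

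The replicate numbers were not shown to pair the libraries: deviations from the group means correlated from -0.223 to 0.344 across genes between libraries of the same number in different groups, and from -0.459 to 0.47 between different numbers. With the replicate block 7 members were called against the C5 control, 5 against the parental line and 2 between the C5 control and the parental line, where 42%, 30% and 18.9% of all genes were. Over all genes, the 5643, 4131 and 2814 calls ranged from 4301 (without knockout replicate 1) to 7204 (without control replicate 2) against the C5 control, from 2515 (without parental replicate 3) to 6840 (only the groups compared) against the parental line, and from 1472 (without parental replicate 1) to 4102 (without control replicate 3) between the other groups. The cause of these shifts was not tested. Klf2 rests on 23 to 152 counts in a library.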

Other observations

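Of the 9 SP genes, the closest relatives of the KLFs, 5 were tested, and these had their lowest mean levels in the C5 control, where the difference was not called for Sp4. Against the parental line, no SP gene was called in the E4 knockout by edgeR, and Sp3 alone had an unadjusted p under 0.05 (0.0266) and was called by DESeq2. Sp1, a broadly expressed factor that binds the GC box, was at 205, 187 and 197 CPM in the E4 libraries, 124, 120.1 and 158 CPM in the C5 libraries, and 201, 191 and 186 CPM in the parental libraries. Sp1, Sp2 and Sp8 were called higher in the E4 knockout than in the C5 control, at 0.55, 0.43 and 1.04 on the log2 scale, and Sp1, Sp2, Sp3 and Sp8 were called lower in the C5 control than in the parental line, at -0.53, -0.39, -0.35 and -1.04. Of all genes, 18.7% were called higher in the first of these comparisons and 11.0% lower in the second. DESeq2 called Sp1, Sp2, Sp3 and Sp8 in the first and only Sp1, Sp2 and Sp3 in the second, so that Sp8, which did not exceed 1.12 CPM, lost its call there.

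Of 11 coregulators bound by KLF proteins, all of them tested, 4 were called in each knockout comparison, where 42.9% of all genes were called against the C5 control and 31.4% against the parental line. The medians of the list were 0.13 and 0.09. Hdac1, a histone deacetylase of the Sin3 complex, was called higher, by 0.41 against the C5 control (edgeR adjusted p 0.000711) and 0.34 against the parental line (edgeR adjusted p 0.00286), as was the acetyltransferase gene Ep300, at 0.48 and 0.31. Kat2b, another acetyltransferase gene, was called lower, at -0.45 and -0.33. Ctbp1 and Ctbp2, the corepressors of Klf3 and Klf12, were not called in any comparison. Sin3a, the corepressor of Klf10 and Klf11, was lower in both clones than in the parental line, at -0.35 in the E4 knockout (edgeR adjusted p 0.00824) and -0.55 in the C5 control (edgeR adjusted p 0.00167). Of 5 ubiquitin ligases that act on KLF proteins, 3 were called higher against the C5 control (Wwp1, Btrc and Itch) and 3 against the parental line (Wwp1, Smurf1 and Itch), where 18.7% and 13.1% of all genes were called higher. Wwp1, which targets Klf2 and Klf5, was higher by 0.27 in both (edgeR adjusted p 0.00941 and 0.0139), and Itch by 0.25 and 0.23. Fbxw7 was called only between the C5 control and the parental line.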
